A study of Mus musculus with 6 samples.

Results

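Complement components and regulators were followed in aortic roots of klotho-deficient and wild-type mice. The 9 genes considered were C1s1, C1ra, C2, C3, C4b, C7, Cfb, Serping1 and C3ar1, and their members on the array were all probe sets that the platform annotation assigns to 1 of these symbols and no other. That gave 10 probe sets for 6 genes (C1s1, C1ra, C2, Cfb, Serping1 and C3ar1), out of 34945 probe sets with a single gene and 18193 genes in all. The remaining 3 genes, C3, C4b and C7, had no probe set assigned to them alone and were not analysed here. All 10 probe sets were above the highest of 27 Bacillus control probe sets (161.8) on all 6 arrays, so none was lost to low signal.

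Klotho-deficient mice were homozygous for a mutant klotho allele, and wild-type mice were homozygous for the normal allele, both on a C57BL/6J albino strain and 6 to 6.5 weeks old. The tissue taken was the valve with its leaflets and annulus, together with the first stretch of ascending aorta. Each array carried RNA pooled from 3 animals, so the 3 arrays of a genotype stand for 9 mice, and p-values measure the spread between pools. Smooth muscle and fibroblast markers fitted the labelled tissue, with all 7 smooth muscle genes and all 8 fibroblast genes above the Bacillus level, for example Myh11 at 31026.5 to 47324.1 on klotho-deficient arrays and 32355.8 to 41075.2 on wild-type arrays.

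Complement is a protein cascade that tags microbes and damaged cells, attracts leukocytes and can puncture membranes. The classical route starts when C1q binds a surface and activates the proteases C1r and C1s, which cut C4 and C2 to form a C3 convertase. The alternative route builds its own convertase from C3b and factor B. The C1 inhibitor, encoded by Serping1, blocks C1r and C1s, and the small fragment C3a signals through the receptor C3aR, encoded by C3ar1. Liver supplies most circulating complement, while fibroblasts, mesothelium and macrophages make components locally.

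Arrays that stand apart bear on several values below. Klotho-deficient replicates 2 and 3 lacked Y-linked transcripts, with Eif2s3y at 87.9 and 104.4, whereas klotho-deficient replicate 1 measured 5199.3 and the wild-type arrays 4305.3 to 5160.2. The labels give no sex. Wild-type replicate 3 had a 3' to 5' Gapdh signal ratio of 7.18, against 3.23 to 4.08 on the other arrays. The means of its mesothelial and endothelial marker lists were also the highest of the 6 arrays, 0.77 and 0.79 above each gene's own mean on the log2 scale. Krt18 on the mesothelial list was instead highest on klotho-deficient replicate 1. Of 6 hepatocyte markers measured, 3 (Ahsg, Apoa1 and Fgb) were above the Bacillus level on all 6 arrays. The list had 5 positive and 1 negative difference, with 0 genes under an unadjusted p of 0.05 in limma and a summed signal of 2172 to 3327 on klotho-deficient arrays and 1578 to 2878 on wild-type arrays. Ahsg measured 1331.8, 1006.2 and 2418.8 on klotho-deficient arrays and 668.3, 1015.7 and 2154.1 on wild-type arrays, and Alb 97.6 to 154.1 and 64.8 to 286.3.

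Promoter sequence was available for 3 of the 6 measured genes in the RefSeq table of GRCm38.p6, as 250 bases before and 50 after a transcript start. The sequences are shown because C3ar1 had the highest difference of the 6 genes and C1ra and C1s1 encode the paired proteases whose differences were small. Capitals mark matches on either strand to GAGGAA (the core bound by the myeloid factor PU.1), TTCNNNGAA (the GAS element of STAT factors), TGANTCA (the AP-1 element) or TTGCNNAA (an element like that of C/EBP factors). For C1s1 the first of 2 listed starts is given.
C3ar1 (chr6:122856108-122856407, minus strand): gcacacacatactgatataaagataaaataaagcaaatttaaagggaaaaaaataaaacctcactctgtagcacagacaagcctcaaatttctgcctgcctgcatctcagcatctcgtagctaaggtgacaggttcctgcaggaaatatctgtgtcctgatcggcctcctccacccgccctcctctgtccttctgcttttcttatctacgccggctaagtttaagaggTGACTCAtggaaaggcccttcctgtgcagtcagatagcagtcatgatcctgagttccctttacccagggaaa
C1ra (chr6:124512371-124512670, plus strand): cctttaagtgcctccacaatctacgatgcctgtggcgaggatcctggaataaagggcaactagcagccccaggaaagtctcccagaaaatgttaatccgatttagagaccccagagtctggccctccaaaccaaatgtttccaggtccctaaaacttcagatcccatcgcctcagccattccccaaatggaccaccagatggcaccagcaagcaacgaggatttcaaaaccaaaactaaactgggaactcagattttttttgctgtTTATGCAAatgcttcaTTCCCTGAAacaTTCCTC
C1s1 (chr6:124542310-124542609, minus strand): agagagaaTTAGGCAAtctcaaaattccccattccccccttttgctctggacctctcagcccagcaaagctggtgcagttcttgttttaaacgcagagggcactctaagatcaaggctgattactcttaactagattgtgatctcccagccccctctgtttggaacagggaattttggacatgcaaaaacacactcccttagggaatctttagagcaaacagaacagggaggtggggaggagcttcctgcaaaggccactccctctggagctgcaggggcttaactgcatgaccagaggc
The C3ar1 window held 1 AP-1 match, TGACTCA, and none of the other motifs. The C1ra window held 3 matches downstream of the start, a C/EBP-like TTATGCAA, the GAS letters TTCCCTGAA and the PU.1 core read on the reverse strand, TTCCTC. The C1s1 window held 1 C/EBP-like match, TTAGGCAA, far upstream of the start. No matches overlapped. Over all 32851 promoters in that table, 28.3% held the PU.1 core, 10.8% the C/EBP-like letters, 8.3% the GAS letters and 7.81% the AP-1 letters. A match is a run of letters and not a measured binding site.

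Across the measured members the genotypes differed little, and the members did not move one way. C3ar1 was higher in klotho-deficient roots on average and C2 lower, while C1ra, C1s1, Serping1 and Cfb lay close to equal. With each gene represented by its probe set of highest mean, 4 of 6 members had a positive difference and 2 a negative one. Their median difference was 0.03 on the log2 scale, beside 0.003 over all 18193 genes. In limma with Benjamini-Hochberg adjustment over all genes, 0 of 6 members passed 0.05, with adjusted p from 0.796 to 0.988, where 0% of all genes passed.

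At an unadjusted p under 0.05 in limma, 0 of the 6 members were called, against 6.41% of all genes (3.25% higher and 3.16% lower). The klotho-deficient arrays all lay below the wild-type arrays for 1 member, C1s1, and all above them for none, where 13.5% of all genes did not overlap (6.63% higher and 6.84% lower). By probe set, 2 of 10 had an unadjusted p under 0.05, 1 higher (C3ar1) and 1 lower (C2), against 5.94% of all probe sets (3.13% higher and 2.81% lower), and 0 of 10 passed after adjustment (adjusted p 0.835 to 0.991 in limma, with 0% of all probe sets past the threshold). The groups did not overlap for 2 of 10 probe sets, 1 of C2 and that of C1s1, both lower, against 12.6% of all probe sets (6.42% higher and 6.21% lower).

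**Figure D1:**
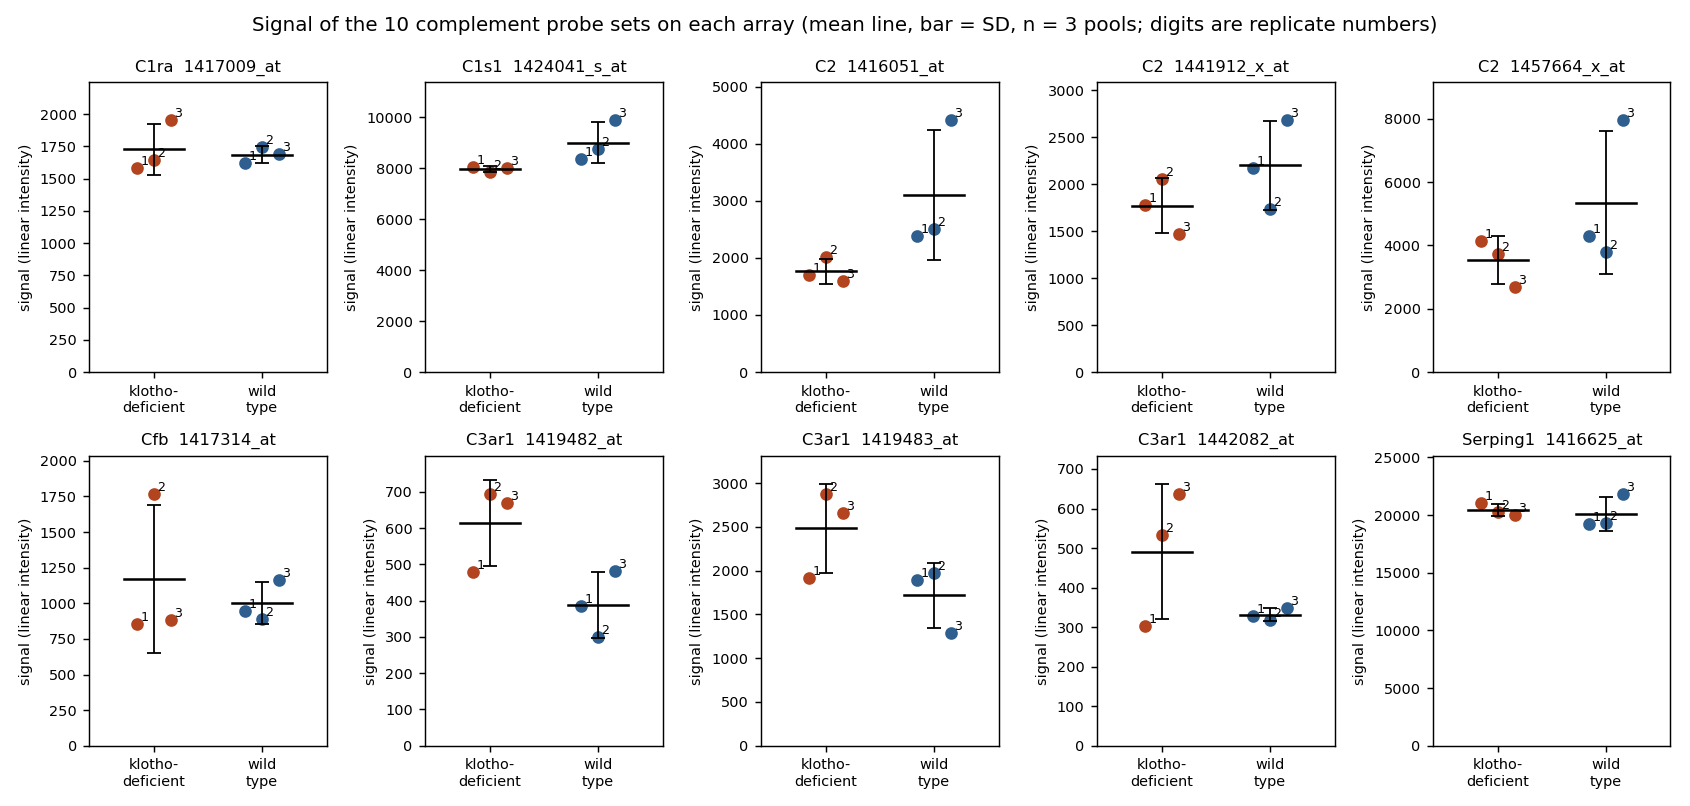
Signal (linear intensity, from 0) of the 10 member probe sets on each array, klotho-deficient on the left of each panel and wild type on the right. Points are pools with their replicate numbers, the long line is the mean and the bar the SD of 3 pools; C1s1 and the first C2 probe set are the panels in which every klotho-deficient point lies below every wild-type point.

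C1ra and C1s1 encode the proteases that sit in the C1 complex with C1q. For C1ra (1417009_at) the klotho-deficient arrays read 1585.3, 1644 and 1954.2 and the wild-type arrays 1617.9, 1748.2 and 1689.4. The wild-type values lay inside the klotho-deficient range. The difference was 0.03 ± 0.17 (SE, log2; limma adjusted p = 0.986), with a 95% interval from -0.39 to 0.45.

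C1s1 (probe set 1424041_s_at) gave 8055.7, 7828.9 and 7983.1 on the klotho-deficient arrays and 8355.5, 8765.7 and 9878.9 on the wild-type arrays. All klotho-deficient signals were below all wild-type signals, and the klotho-deficient arrays were close together, 0.04 apart on the log2 scale against 0.24 in wild type. The klotho-deficient mean was 7956 ± 116 and the wild-type mean 9000 ± 788 (SD, n = 3 each). The difference of -0.17 ± 0.16 did not pass (limma adjusted p = 0.876), and its interval, -0.58 to 0.23, spans 0.67-fold to 1.17-fold. The suffix s marks probes that can match several transcripts, so transcripts of the close copy C1s2, not analysed here on its own, cannot be told apart from C1s1 in that signal.

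Serping1, the inhibitor of these proteases, was the steadiest member. Its probe set 1416625_at gave 21022.5, 20235.4 and 20010 on the klotho-deficient arrays and 19274.5, 19297.1 and 21844.3 on the wild-type arrays. The groups overlapped, and all 6 values lay within 0.18 of each other on the log2 scale. The difference was 0.02 ± 0.16 (limma adjusted p = 0.988), with an interval from 0.77-fold to 1.34-fold.

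C2 supplies the catalytic subunit of the classical and lectin convertase. Its 3 probe sets were all lower on average in klotho-deficient roots. The probe set of highest mean, 1457664_x_at, gave 4152.9, 3744 and 2697.3 on the klotho-deficient arrays and 4301.3, 3804.3 and 7957.4 on the wild-type arrays. The wild-type mean rested on replicate 3, and the other 2 wild-type arrays lay among or just above the klotho-deficient ones. The difference was -0.54 ± 0.34 (limma adjusted p = 0.823), and it was -0.22 without wild-type replicate 3 and -0.04 without replicate 3 of both genotypes.

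Probe set 1416051_at, which carries no cross-matching suffix, separated the genotypes for C2. It gave 1703.2, 2013.3 and 1586.9 on the klotho-deficient arrays and 2382.2, 2503.4 and 4412.3 on the wild-type arrays. Every klotho-deficient signal was below every wild-type one, and wild-type replicate 3 was again far above the others. In the limma fit over all probe sets the difference was -0.76 ± 0.29, with an unadjusted p of 0.0409 and an adjusted p of 0.835. Without wild-type replicate 3 it was -0.47 ± 0.21, with an unadjusted p of 0.0703. The third C2 probe set, 1441912_x_at, gave 1782.5, 2058.3 and 1470.6 in klotho-deficient roots against 2177.7, 1740.2 and 2684.1 in wild type, with overlap and a difference of -0.30 ± 0.25. The suffix x marks probes that may also match other sequences.

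The mean of the mesothelial markers moved with C2 probe set 1457664_x_at from array to array. On the log2 scale, C2 (1457664_x_at) stood at -0.02, -0.17 and -0.64 on the klotho-deficient arrays and at 0.04, -0.14 and 0.92 on the wild-type arrays, each relative to its mean over the 6 arrays. The mean of 8 mesothelial genes stood at 0.10, -0.13 and -0.73 on the klotho-deficient arrays and at 0.04, -0.05 and 0.77 on the wild-type arrays. All 8 of these markers were above the Bacillus level, 7 of 8 were lower in klotho-deficient roots, where 49.6% of all genes had a negative difference, and 4 of 8 did not overlap and were lower, against 6.84% of all genes. Their summed signal was 24115 to 39979 on klotho-deficient arrays and 37045 to 61400 on wild-type arrays. The C2 probe set without a suffix, 1416051_at, did not follow the mesothelial mean on klotho-deficient replicate 1. It read 1703.2 there, below wild-type replicates 1 and 2 (2382.2 and 2503.4). The mesothelial mean on that array, 0.10, was above those of the same 2 wild-type arrays (0.04 and -0.05). In bulk tissue, fewer cells of a type and less RNA per cell cannot be told apart, and the part of mesothelial RNA in the C2 difference was not tested.

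The genes nearest to C2 (1457664_x_at) in array profile were Spink2, Wt1 and Krt7. Their root mean square distances from the C2 profile were 0.11, 0.11 and 0.12 on the log2 scale over the 6 arrays, the smallest among 13291 genes with a mean above the Bacillus level, complement genes being left out of the search. Wt1, a transcription factor of mesothelium and epicardium, measured 1340.6, 1209.7 and 757.5 on the klotho-deficient arrays and 1368.9, 1392.4 and 2681.1 on the wild-type arrays. Like C2, Wt1 was lowest on klotho-deficient replicate 3 and highest on wild-type replicate 3. That likeness follows from the choice, since Wt1 was picked by its distance to the C2 profile on these same arrays. Wt1 is also on the mesothelial list. Krt7 is a keratin of simple epithelia.

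Cfb encodes factor B, the catalytic subunit of the alternative convertase, and lies next to C2 in the genome. Its signals (1417314_at) were 856.6, 1768.1 and 880.5 on the klotho-deficient arrays and 944.1, 888.9 and 1165.7 on the wild-type arrays. Klotho-deficient replicate 2 was alone in being high, and the other 2 klotho-deficient arrays were below all 3 wild-type arrays. The difference was 0.15 ± 0.33 (limma adjusted p = 0.946), and it was -0.19 without klotho-deficient replicate 2. The genes of nearest profile were Col5a3, Gm11110 and Homer1, at distances of 0.07, 0.09 and 0.09.

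The same klotho-deficient replicate 2 had the highest median signal of the 6 arrays, 556.6 against 425.6 to 511.7 on the others. The share of all genes that were highest on that array was not counted. It had the highest signal of the 6 arrays for 3 of 6 interferon genes (Ifit1, Ifit3 and Oas1a). The same held for 3 of 8 acute phase and cytokine genes (Il6, Saa3 and Lcn2). Others did not share this: on that array Irf1 (2806.7) and Hp (953.6) were below all 3 wild-type arrays, and Gbp2 (2925.6) was below wild-type replicates 1 and 3. Ifit1, an interferon-induced gene, measured 782.6, 8495.7 and 2522.5 on the klotho-deficient arrays and 2635.6, 1619.8 and 1357.1 on the wild-type arrays. Saa3, an acute phase protein made outside the liver, measured 222.6, 2074.2 and 180 on the klotho-deficient arrays and 234.4, 311.2 and 1172.4 on the wild-type arrays. The Saa3 signals followed the Cfb order in having klotho-deficient replicate 2 first and wild-type replicate 3 next. The mean of 8 acute phase and cytokine genes was 1.21 on that klotho-deficient array and -0.10 and 0.14 on the other 2, against -0.68 to -0.08 in wild type. The mean of 6 interferon genes was 0.78 there, -0.46 and 0.02 on the others, and -0.72 to 0.46 in wild type. Some genes in these means were near the floor. Il6 was above the Bacillus level on klotho-deficient replicate 2 alone, Irf7 on 2 arrays and Tnf on 0. The part of acute phase and interferon genes in the Cfb signal was not tested.

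**Figure D2:**
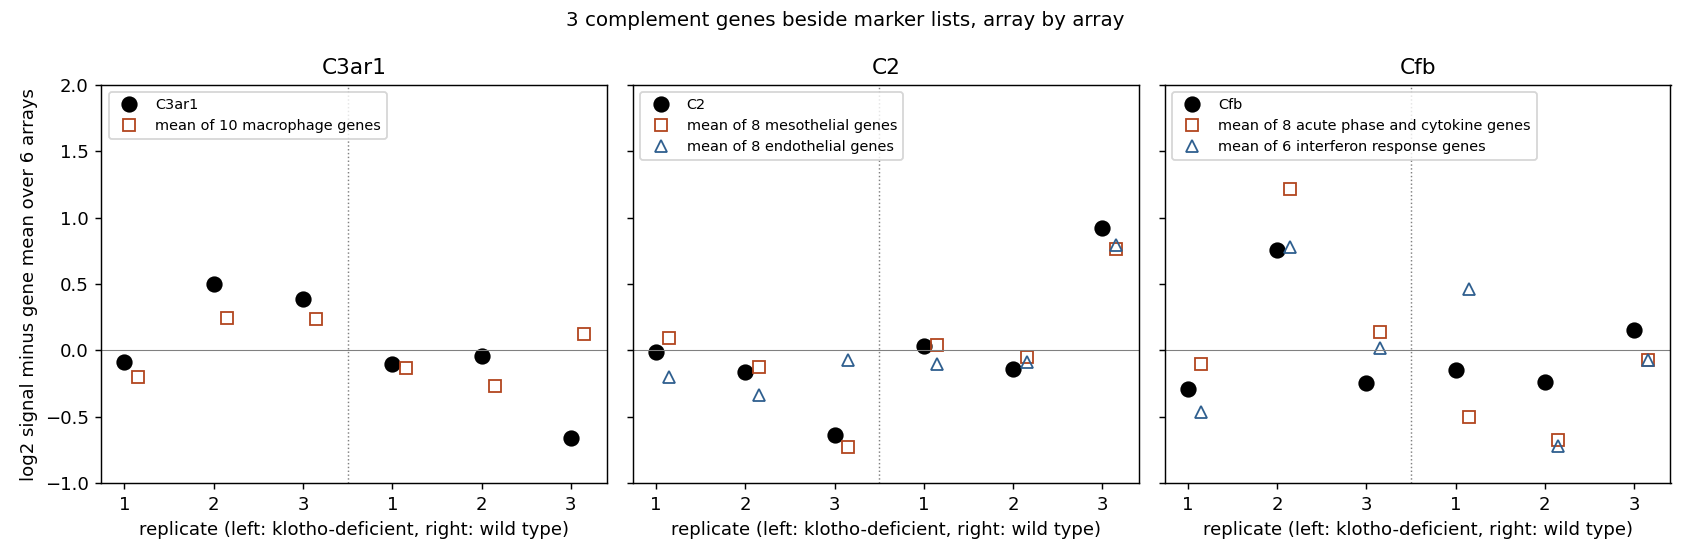
Log2 signal minus the gene's mean over the 6 arrays for C3ar1, C2 and Cfb (filled points), beside the means of marker lists (open points), with klotho-deficient replicates left of the dotted line and wild-type replicates right of it. C2 (1457664_x_at) and the mesothelial mean are lowest on klotho-deficient replicate 3 (-0.64 and -0.73) and highest on wild-type replicate 3 (0.92 and 0.77). Cfb is highest on klotho-deficient replicate 2 (0.76).

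C3ar1 encodes the receptor for the anaphylatoxin C3a and is found mainly on myeloid cells. All 3 of its probe sets were higher on average in klotho-deficient roots, by 1.41-fold to 1.59-fold. Probe set 1419483_at, the one of highest mean, gave 1911.2, 2876.6 and 2659.2 on the klotho-deficient arrays and 1889, 1973.9 and 1289.5 on the wild-type arrays. Klotho-deficient replicates 2 and 3 were above all wild-type arrays, and replicate 1 lay between wild-type replicates 1 and 2. The difference was 0.53 ± 0.26 (limma adjusted p = 0.796), with an interval from 0.93-fold to 2.26-fold.

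The other C3ar1 probe sets showed the same split among the klotho-deficient pools. Probe set 1419482_at gave 478.3, 694.2 and 669.3 on the klotho-deficient arrays and 383.9, 299 and 482.1 on the wild-type arrays, a difference of 0.67 ± 0.27 with an unadjusted p of 0.0456 and an adjusted p of 0.835 in limma over all probe sets. Its wild-type replicate 3 was the highest wild-type value and that of 1419483_at the lowest, so the probe sets disagreed on that array. Probe set 1442082_at gave 302.1, 534.1 and 637.1 on the klotho-deficient arrays and 328.5, 317.4 and 349.1 on the wild-type arrays (0.50 ± 0.31, limma adjusted p = 0.866). There, klotho-deficient replicate 1 was the lowest of all 6 arrays.

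The 2 klotho-deficient arrays that were high in C3ar1 were those without Y-linked transcripts. With a covariate for these arrays, which leaves klotho-deficient replicate 1 to set the genotype difference, the differences of 1419483_at, 1419482_at and 1442082_at were 0.18, 0.33 and -0.13. Without klotho-deficient replicate 1 they were 0.71, 0.84 and 0.82. The labels do not allow sex and genotype to be told apart on klotho-deficient replicates 2 and 3.

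Macrophage markers were measured beside C3ar1. All 10 were above the Bacillus level, 7 were higher and 3 lower in klotho-deficient roots, and 0 passed in limma, also at an unadjusted p under 0.05. Centred on each gene's mean, the list stood at -0.20, 0.24 and 0.24 in the klotho-deficient pools and at -0.13, -0.27 and 0.13 in the wild-type pools, so klotho-deficient replicates 2 and 3 were the highest. Their summed signal was 51192 to 63639 on klotho-deficient arrays and 44584 to 63385 on wild-type arrays. Mpeg1, a pore-forming protein of macrophages, measured 2304.7, 4394.8 and 6425.2 on klotho-deficient arrays and 1523.5, 1861.4 and 3092.6 on wild-type arrays (0.96 ± 0.45). The growth factor receptor Csf1r differed by 0.05 ± 0.24 and the lysozyme gene Lyz2 by -0.12 ± 0.25. Neutrophils also carry C3aR. Of 7 neutrophil markers measured, 5 had a positive difference and 2 a negative one, the granule genes Mpo and Elane. In all, 4 never exceeded the Bacillus level, Mpo and Elane among them. In limma 2 of the 7, S100a8 and S100a9, were higher at an unadjusted p under 0.05, against 3.25% of all genes. The same 2 were higher without overlap, against 6.63% of all genes. The largest difference of the 7 was that of S100a9, which measured 592.6, 886.8 and 1100.2 in klotho-deficient roots against 26.3, 24.2 and 307.9 in wild type (limma adjusted p = 0.67). Its wild-type replicates 1 and 2 were below the Bacillus level. S100a8 differed by 0.65 ± 0.16 (limma adjusted p = 0.67). The parts of macrophage and neutrophil RNA in the C3ar1 difference were not tested. The genes of nearest profile to C3ar1 were Ssc5d, Rsad1 and Nebl, each at a distance of 0.10.

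Taking the 6 members as 1 mean profile, the klotho-deficient arrays stood at -0.09, 0.16 and -0.07 and the wild-type arrays at -0.06, -0.07 and 0.13. Both genotypes had arrays above and below 0, and their ranges overlapped. Dnm3, Lgi4, Capza2, Ppfia1 and Hmgcs1 had the nearest profiles, at distances of 0.04 each.

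Other complement genes were read from a list of 49, of which 40 were measured and 32 were above the Bacillus level on at least 1 array. Of the 40, 20 had a positive and 20 a negative difference, with a median of 0.01. In limma 0 passed over all genes (adjusted p 0.763 to 0.996), and 1 had an unadjusted p under 0.05, Cd55, which was lower. Groups did not overlap for 1 gene higher and 2 lower, against 6.63% and 6.84% of all genes.

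Among initiators, the 3 chains of C1q, the recognition molecule made mainly by macrophages, had small average differences. C1qa differed by 0.16 ± 0.23, C1qb by -0.04 ± 0.25 and C1qc by -0.09 ± 0.39. C1qb (1437726_x_at) gave 16458.9, 23042.2 and 18876 on klotho-deficient arrays and 19825.2, 15372.8 and 25309.7 on wild-type arrays, with full overlap. On wild-type replicate 3 C1qb was the highest of the 6 arrays and C3ar1 probe set 1419483_at the lowest. The C3ar1 probe sets 1419482_at and 1442082_at instead had their highest wild-type value on that array (482.1 and 349.1). The lectin pathway protease gene Masp1 gave 530.2, 477.8 and 531.9 in klotho-deficient roots against 332.2, 449.7 and 461.2 in wild type (0.32 ± 0.20), without overlap, and its other probe sets ran from -0.31 to 1.03. Colec11, a collectin, averaged 1884 ± 496 in klotho-deficient roots, against 2646 ± 901 in wild type (-0.47 ± 0.32).

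Regulators on the cell surface included the lowest p of the list. Cd55, the decay-accelerating factor that takes convertases apart, gave 7037.5, 6297.4 and 5044.4 on klotho-deficient arrays and 8361.3, 8353.2 and 9633.8 on wild-type arrays (1460242_at). The groups did not overlap, and the difference was -0.53 ± 0.20 with an unadjusted p of 0.0371 and an adjusted p of 0.763 in limma. That call was lost under 11 of 16 other settings. In limma the unadjusted p was 0.0783 with the replicate block, and with the covariate for arrays without Y-linked transcripts the difference was -0.32 and the unadjusted p 0.32. Its other probe sets gave -0.37 (1443906_at) and 0.38 (1418762_at), so the gene's probe sets disagree. Cd59a, which blocks the membrane attack complex, differed by -0.28 ± 0.22, and Cr1l, the rodent regulator Crry, by -0.05 ± 0.23. Cd46, a cofactor for C3b cleavage, differed by 0.69 ± 0.50.

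Fluid-phase and receptor genes of the list overlapped or missed the unadjusted threshold of 0.05 in the main fit over genes. Cfi, the protease that inactivates C3b, gave 349.4, 409.2 and 488.4 in klotho-deficient roots against 152.1, 317.1 and 378.1 in wild type (0.65 ± 0.38), and the difference was 0.25 without wild-type replicate 1. Cfp, properdin, which stabilises the alternative convertase, averaged 878 ± 430 in klotho-deficient roots, against 1061 ± 465 in wild type (-0.30 ± 0.45). C5ar1, the receptor for C5a, gave 6048, 10366.1 and 6262 in klotho-deficient roots against 6365, 5347.5 and 7855 in wild type (0.18 ± 0.29), and was highest on klotho-deficient replicate 2. Cd93, an endothelial glycoprotein first described as a C1q receptor, averaged 4100 ± 433 in klotho-deficient roots, against 5293 ± 223 in wild type (-0.37 ± 0.17), without overlap. All 5 of its probe sets were lower in klotho-deficient roots, 1 of them below the Bacillus level. In limma over all probe sets, 1449521_at had an unadjusted p of 0.0463 and an adjusted p of 0.835. By gene the unadjusted limma p was 0.0714. It was 0.0462 with the offset of 100, 0.0449 with the trended and robust prior and 0.03 with array weights. With median centring it was 0.189, and with the Y-linked covariate 0.119. Endothelial markers were lower for 7 of 8 genes, where 49.6% of all genes had a negative difference. Their summed signal was 30002, 26804 and 33254 on klotho-deficient arrays and 30576, 31340 and 57480 on wild-type arrays. In that sum, wild-type replicates 1 and 2 lay within the klotho-deficient range, and replicate 3 lay above it. By gene, 3 of the 8 did not overlap and were lower, against 6.84% of all genes, and 0 were higher without overlap. In limma 2 of the 8 were lower at an unadjusted p under 0.05, against 3.16% of all genes. The part of endothelial RNA in the Cd93 difference was not tested.

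**Figure D3:**
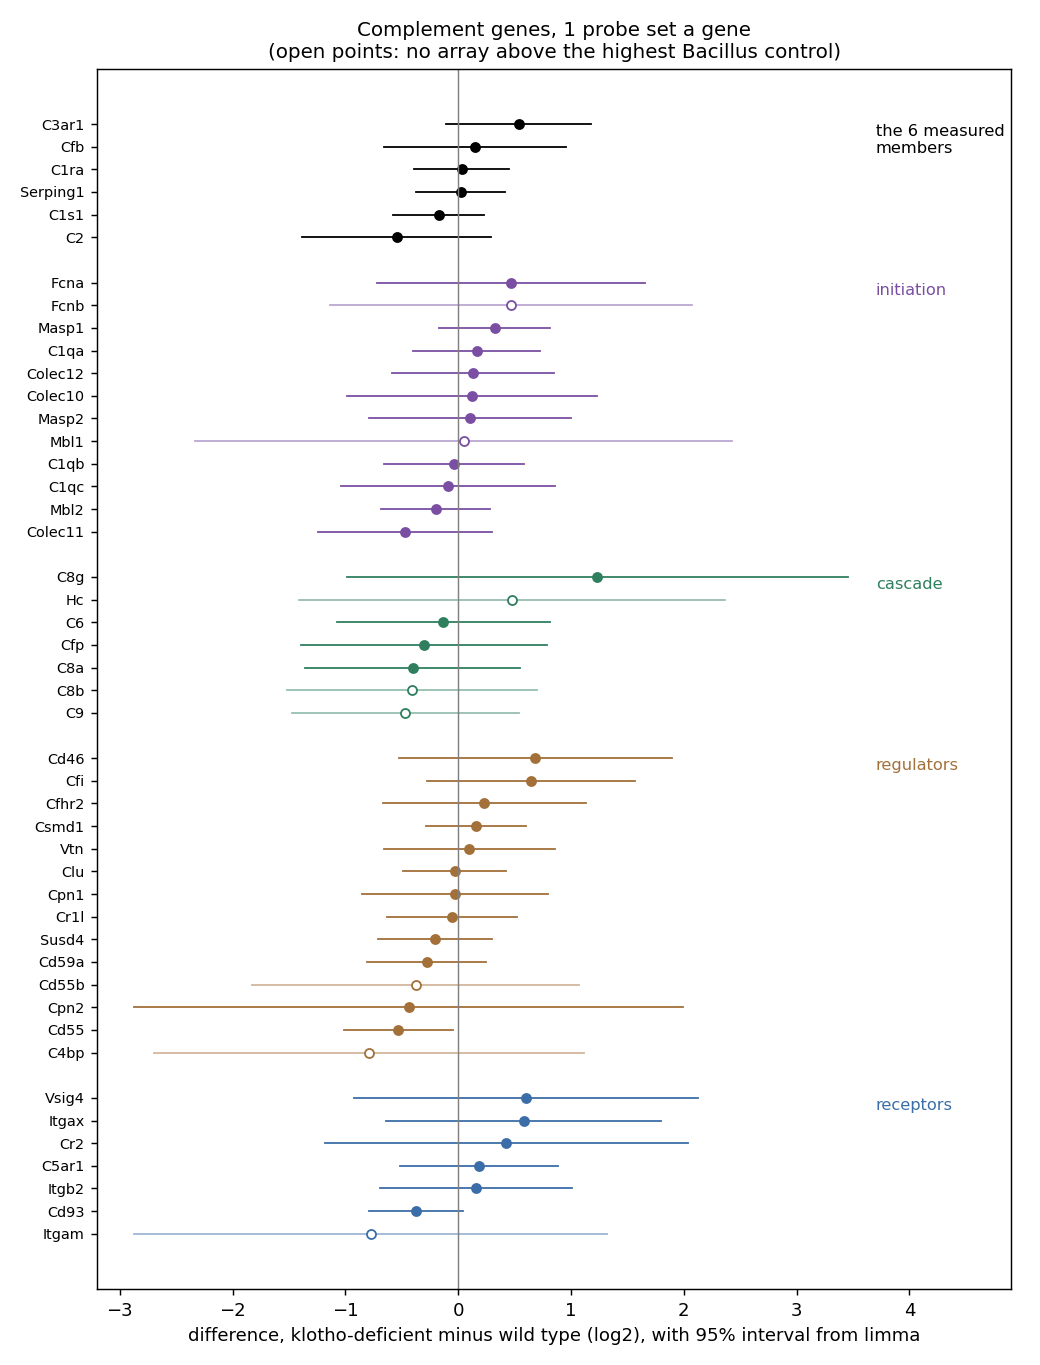
Difference in log2 signal, klotho-deficient minus wild type, with its 95% interval from limma, for the 6 measured members and the 40 measured genes of the wider complement list, grouped by role. Open points had no array above the highest Bacillus control; of the 46 intervals, that of Cd55 (-1.02 to -0.04) is the one that leaves out 0.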

How the data were processed

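Array values came from 6 pools of 3 aortic roots, 3 per genotype. Per the labels' protocols, Trizol was used for RNA extraction and NuGEN kits for amplification and biotin labelling. The deposited values are linear intensities for 45101 probe sets, from 0.1 to 131884.9, with a 2% trimmed mean of 1500 on every array. RMA is named in the submitters' processing notes, with no statement of how this linear scale arose.

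Intensities were log2-transformed with no pseudocount and compared in R 4.3.3 by limma 3.58.1 (functions lmFit and eBayes, two-sided, 4 residual and 2.1 prior degrees of freedom), once over 18193 genes, each by its probe set of highest mean, and once over 34945 single-gene probe sets. Control spots were left out. Differences are klotho-deficient minus wild type, ± SE. The procedure was run on simulated data with planted shifts larger than any member difference. That run cannot show how well differences of the size reported here are found. Probes of 932 sets with several genes were named for none. Of 34945 identifiers, 34741 were found in the RefSeq table of GRCm38.p6. Precision is limited by the number of arrays.

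The members and lists were chosen with earlier results of these data known. Named genes were the members, the chief partners in the complement list, the 4 others of smallest p (Cd93, Masp1, Colec11 and Cd46) and genes of nearest array profile; marker genes and the nearest profiles of single members were picked after their values were seen. Alternatives tried were quantile normalization, a replicate block, centring on the median, an offset of 100, a filter on dim genes, the mean over probe sets, another variance prior, array weights, a Y-linked covariate and left-out arrays. Figures were drawn with matplotlib 3.10.9.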

Additional observations from a re-analysis of the deposited data

How the results depend on the processing

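Over 16 alternatives no member passed the adjusted threshold. C3ar1 kept a positive difference in all 16 (0.18 to 0.71), and C2 and C1s1 a negative one in all 16 (-0.75 to -0.04 and -0.23 to -0.11). C1ra turned to -0.0072 with quantile normalization, -0.0185 with array weights, -0.0874 with the Y-linked covariate and -0.059 without replicate 3 of both genotypes, and ran from -0.0612 to 0.0897 with single arrays left out. Cfb turned to -0.21 with the Y-linked covariate and ran from -0.19 (without klotho-deficient replicate 2) to 0.33 with single arrays left out. Serping1 ran from -0.008 (without wild-type replicate 1) to 0.0823 with single arrays left out, and was -0.0071 without wild-type replicate 2. The causes were not tested.

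Whether the replicate numbers pair the samples was not settled. Same-numbered arrays had correlations of deviations of 0.165, -0.01 and 0.161 across genes, and 4 of 6 arrays correlated best with their own number. Klotho-deficient replicate 1 with wild-type replicate 3 gave -0.144, and klotho-deficient replicate 3 with wild-type replicate 1 gave -0.199. With the replicate block, 0 member probe sets had an unadjusted p under 0.05 in limma, in place of 2. That count was also 0 with median centring, the Y-linked covariate or replicate 3 of both genotypes left out, 1 with quantile normalization, 3 with the trended and robust prior, and 0 to 2 with each array left out. The count of members that did not overlap and were higher was 1 in place of 0 with quantile normalization, the mean over probe sets or replicate 3 of both genotypes left out. It was 0 to 1 with single arrays left out. The member was not always the same: it was C3ar1 with the mean over probe sets and Serping1 without replicate 3 of both genotypes. The trended and robust prior gave 1 member an unadjusted p under 0.05 (C3ar1), and single arrays left out gave 0 to 1. In the wider list the replicate block also gave 1 gene, Cd46 (unadjusted p = 0.0427) in place of Cd55 (0.0783). The count of 1 became 0 with median centring, 2 with the offset, the mean over probe sets or the trended prior, 4 without replicate 3 of both genotypes, and 0 to 2 with single arrays left out. Over all genes 1 gene was called with the offset, the filter or array weights, 2 with the trended prior, and 0 to 1 with single arrays left out; none was a member.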
